A study of Homo sapiens with 16 samples.

Results

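The 58 genes described here encode proteins of mitosis, from the kinases that start it to the regulators of cytokinesis. They are a list of gene names in 10 functional groups, chosen with earlier results of these data known. The rule names genes and uses measured levels only to pick a probe set for each. All 58 were measured, out of 19775 genes that the array annotation names. Each gene is represented by its brightest probe set, taken as the mean of all 16 arrays. The members cover 115 probe sets, and 30 members have more than 1.

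The cells were MiaPaca-2, an established human pancreatic cancer line, and all 4 groups come from this single line. They were kept for 12 hours with vehicle (DMSO) or with PP242 at 2.5 µM. PP242 binds the ATP pocket of mTOR and so inhibits both of its complexes. RNA was taken from the cytosol (labelled Total) or from sucrose gradient fractions pooled where an mRNA carries more than 3 ribosomes (labelled Poly). This gives 4 groups of 4 arrays, called cytosolic vehicle, polysome vehicle, cytosolic PP242 and polysome PP242 below; the labels mark vehicle as NT. The series title names translational control by the mTOR and 4E-BP1 axis, so the comparisons ask what PP242 changes in each RNA pool and whether it changes polysome association beyond the change in the cytosol. The labels do not say whether the replicates were separate cultures, so the p-values measure the spread between these samples, which may be technical.

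Mitosis is driven by cyclin B with CDK1. Aurora and Polo-like kinases, kinetochores and motors then attach chromosomes to the spindle, and the checkpoint holds back the anaphase-promoting complex until attachment is complete. Most of these genes are transcribed late in the cell cycle, through promoters read by the DREAM, MYBL2-MuvB and FOXM1 complexes, so their mRNA levels are widely used as a sign of proliferation. mTOR complex 1 promotes cap-dependent translation and cell growth, and growth is a condition for passage through the cell cycle.

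The line's own markers were partly present. KRT8, KRT18 and KRT19, keratins of simple epithelium, were high, and KRT18 and KRT19 rose in both pools, while CDH1 and EPCAM had cytosolic vehicle means of 3.48 and 2.61, below the 25th percentile of each cytosolic vehicle array (4.19 to 4.27). KRT8 was called higher in the cytosol only. KRT7 had a cytosolic vehicle mean of 6.40, where the median of all genes was 6.05, and was called changed in neither pool. None of the 4 leukocyte, 5 endothelial and 6 normal pancreas markers measured was called changed. Their group means lay between 2.28 and 5.92, and their sums over genes in cytosolic vehicle and cytosolic PP242 were 16.2 and 16.5, 21.3 and 21.1, and 23.7 and 24.1. Of 6 fibroblast markers, COL1A2 and COL3A1 fell in both pools, by 0.85 and 1.02 on the log2 scale in polysome RNA, and the sum of the 6 means was 40.3 in cytosolic vehicle and 38.7 in cytosolic PP242. The group means of these 6 markers ran from 3.24 (LUM) to 12.21 (COL1A2), both in polysome vehicle, and COL1A2 was at 11.62 in cytosolic vehicle. Their part in the results was not tested.

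PP242 lowered nearly the whole list in both RNA pools. In polysome RNA 56 of 58 members fell, with none higher, at an adjusted p under 0.05 (limma, Benjamini-Hochberg over all genes). The background for this call was 6.55% of all genes. Over the members the median effect was -1.10 (log2, PP242 minus vehicle), from -2.25 for CDK1 to -0.33 for INCENP, where the median of all genes was -0.005. The exceptions were INCENP and CENPE. In cytosolic RNA 57 of 58 members fell, against 7.91% of all genes, with a median of -1.23 beside 0.04 for all genes. PLK1 was the exception. Members called lower in both pools numbered 55, against 847 of all 19775 genes.

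In fold terms the median member was 2.15-fold lower in polysome RNA and 2.34-fold lower in cytosolic RNA. A fall of at least 2-fold was seen for 38 members in polysome RNA, where 1.21% of all genes (240) reached it, and for 38 in cytosolic RNA, where 2.04% (403) did. Both pools reached it for 29 members. Falls of 2-fold in both pools together, and falls of 4-fold, were not counted over all genes. Falls of at least 4-fold occurred for CDK1 alone in polysome RNA, and for CDK1, MAD2L1, CENPK, SPC25, ANLN, ECT2 and SHCBP1, 7 members, in cytosolic RNA. Without cytosolic PP242 array 4 the latter count was 4 (CDK1, CENPK, SPC25 and SHCBP1), and without arrays 2 and 4 it was 2 (CDK1 and SPC25). The 4 PP242 arrays lay below the 4 vehicle arrays for all 58 members in polysome RNA and for 54 in cytosolic RNA. Such separation downward held for 9.86% and 8.34% of all genes. PLK1, CDC20, CENPE and CENPF were the 4 members whose cytosolic groups overlapped. In bulk RNA, fewer cells in or near mitosis and less mRNA per cell cannot be told apart.

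**Figure D1:**
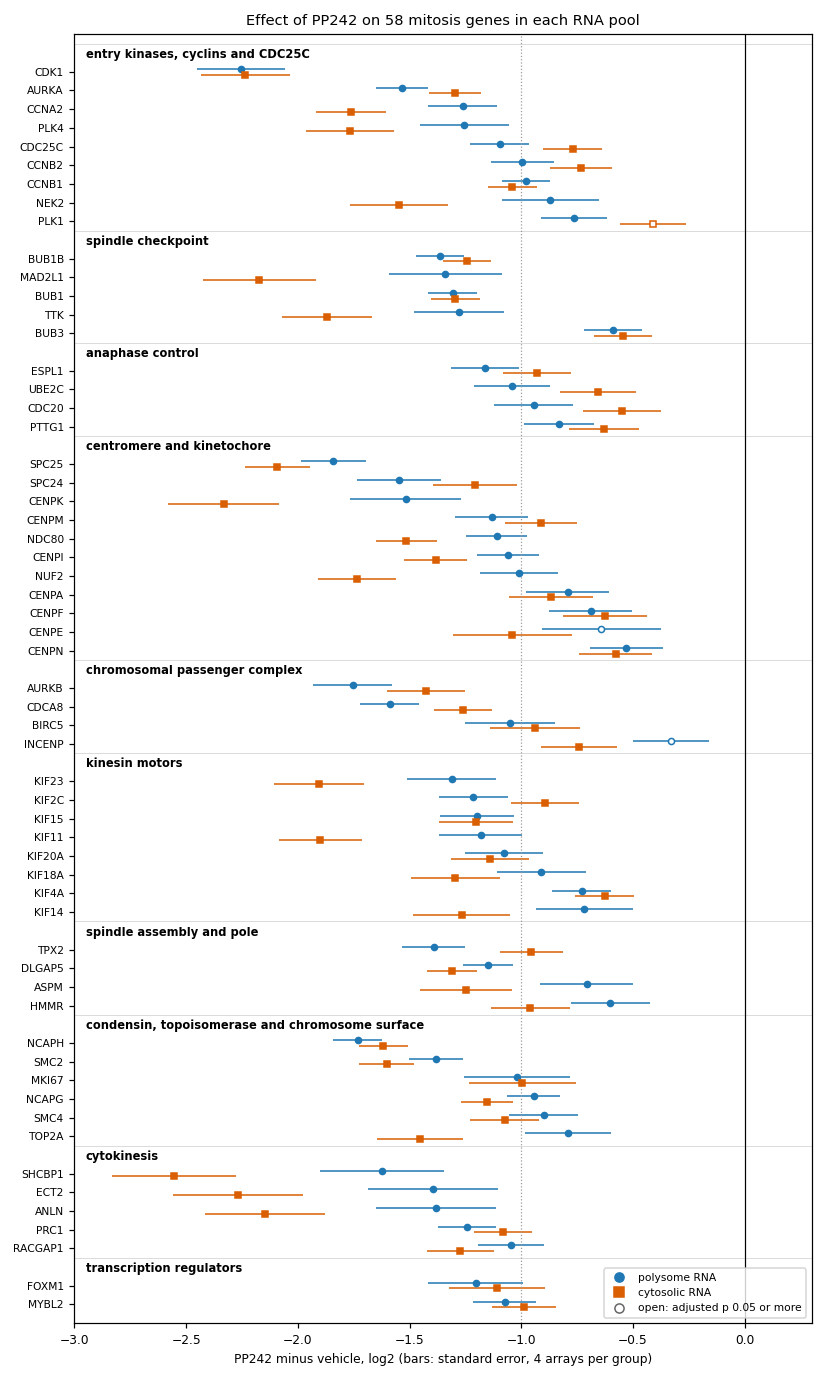
Effect of PP242 on each of the 58 members, as PP242 minus vehicle on the log2 scale, in polysome RNA (circles) and cytosolic RNA (squares), with standard errors from 4 arrays per group. Every point lies left of 0, and the 3 open symbols are INCENP and CENPE in polysome RNA and PLK1 in cytosolic RNA.

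**Figure D2:**
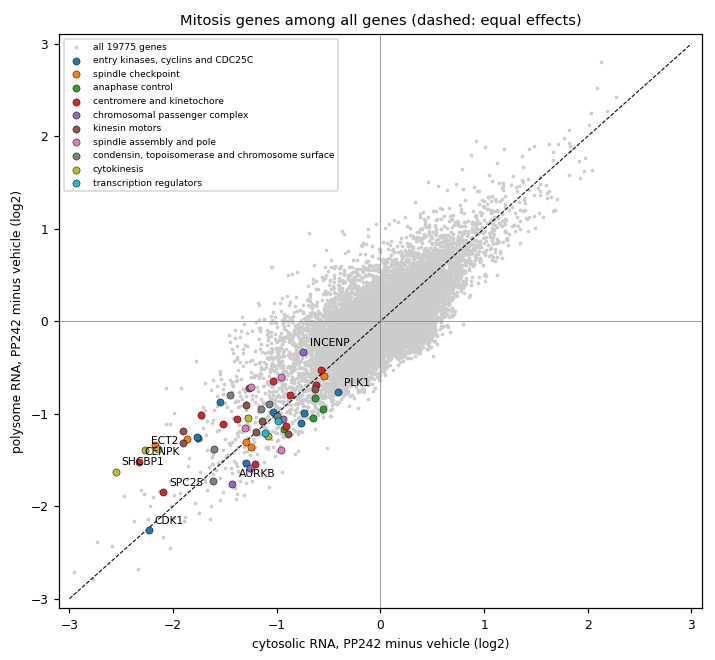
Polysome effect against cytosolic effect of PP242 (both log2) for all 19775 genes in grey and the 58 members in colour by functional group. The members occupy the lower left, on both sides of the dashed line of equal effects, with medians of -1.10 and -1.23.

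The promoters of the members are described next. The list was chosen by function, so the shares below describe these mitosis genes and not the response to PP242. Genes outside the list that fell were not compared. RefSeq promoters (GRCh38.p14, 250 bases before to 50 after the start) were matched by symbol for 49 of 58 members. No promoter was matched for AURKA, BUB3, TTK, UBE2C, CENPM, BIRC5, TPX2, RACGAP1 and FOXM1. Searched on both strands were the cell cycle genes homology region (CHR, TTTGAA or TTCGAA), the site of the DREAM and MYBL2-MuvB complexes, the CCAAT box of NF-Y, and an E2F site, written TTGGCGC in its first form, with TTCCCGC as another, TTCGCGC as a further form and also TTGCCGC. A CHR was present in 35 of 49 members (71.4%), against 13.3% of 15384 measured genes with a promoter and 16.6% of 27305 promoters. The CCAAT box was present in 35 (71.4%), against 36.1% and 35.7%. At least 2 CCAAT boxes were present in 21 members (42.9%), against 12.3% and 11.3%. A CHR together with a CCAAT box was found in 26 members (53.1%), against 5.4% and 6.6%. E2F sites were found in 15 (30.6%), against 17.0% and 13.1%. A match is a description of letters, and binding was not measured.

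Medians with and without these letters lay close together. Members with a CHR had a median polysome effect of -1.11 (n = 35) and those without one -1.09 (n = 14). For the CCAAT box the medians were -1.08 and -1.10, and for E2F -1.01 (n = 15) and -1.14 (n = 34). Over the 46 CHR matches the median distance of the first base from the start site was -27. The promoters shown are the matched ones with the largest polysome falls (CDK1, SPC25) and the smallest changes (INCENP, CENPN), 5′ to 3′ on the gene's strand, with every match in capitals. They lie at chr10:60778081-60778380 (+), chr2:168890381-168890680 (-), chr11:62123761-62124060 (+) and chr16:81006964-81007263 (+).
CDK1: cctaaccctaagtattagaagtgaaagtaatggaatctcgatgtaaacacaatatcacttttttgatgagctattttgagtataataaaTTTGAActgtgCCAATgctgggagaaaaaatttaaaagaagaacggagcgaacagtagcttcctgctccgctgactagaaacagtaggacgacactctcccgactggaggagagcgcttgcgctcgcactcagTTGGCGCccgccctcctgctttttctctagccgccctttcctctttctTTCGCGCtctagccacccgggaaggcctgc
SPC25: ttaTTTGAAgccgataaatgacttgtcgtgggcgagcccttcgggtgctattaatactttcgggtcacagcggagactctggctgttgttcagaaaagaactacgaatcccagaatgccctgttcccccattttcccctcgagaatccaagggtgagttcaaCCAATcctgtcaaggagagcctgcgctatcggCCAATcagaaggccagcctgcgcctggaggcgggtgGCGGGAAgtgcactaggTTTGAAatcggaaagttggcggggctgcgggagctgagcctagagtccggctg
INCENP: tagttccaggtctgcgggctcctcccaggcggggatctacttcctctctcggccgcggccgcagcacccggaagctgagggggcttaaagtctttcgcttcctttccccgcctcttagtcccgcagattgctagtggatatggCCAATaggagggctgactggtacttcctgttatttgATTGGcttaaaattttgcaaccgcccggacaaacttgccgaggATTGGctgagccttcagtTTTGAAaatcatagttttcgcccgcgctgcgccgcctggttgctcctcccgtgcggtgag
CENPN: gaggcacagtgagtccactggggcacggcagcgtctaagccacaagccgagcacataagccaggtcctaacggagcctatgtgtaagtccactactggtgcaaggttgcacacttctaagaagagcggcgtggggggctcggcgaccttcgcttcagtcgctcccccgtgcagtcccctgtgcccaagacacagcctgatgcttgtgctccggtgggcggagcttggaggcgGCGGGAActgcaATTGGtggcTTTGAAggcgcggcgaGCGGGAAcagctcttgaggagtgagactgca
All 4 hold a CHR and a CCAAT box on either strand, both the members that fell most and those that moved least. INCENP has 3 CCAAT boxes and no E2F match, and SPC25 has 2 CHR matches, 1 of them at the far end of the window.

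Array values below are log2 intensities in the order of replicate numbers 1 to 4, effects are PP242 minus vehicle with the standard error of the limma fit, and p is adjusted over all genes. That fit takes 1 spread per gene over all groups. Both effects of a gene therefore carry the same standard error, also where its cytosolic PP242 arrays spread more widely. The level of a probe set cannot be set against that of another. Values are given in full for the member with the largest and the smallest polysome effect of each functional group.

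The 2 transcription regulators of the list fell in both pools. FOXM1 is a forkhead factor that activates late cell cycle genes. In polysome RNA FOXM1 read 8.24, 8.16, 8.61 and 8.84 with vehicle and 7.11, 6.92, 7.46 and 7.54 with PP242, and in cytosolic RNA 9.02, 9.20, 9.55 and 9.48 with vehicle and 7.68, 8.52, 7.93 and 8.68 with PP242. No FOXM1 group overlapped its control. The effects were -1.21 ± 0.21 (adjusted p = 6.44e-04) and -1.11 ± 0.21 (adjusted p = 1.31e-03). MYBL2 is the B-Myb factor that joins MuvB at CHR promoters. Its polysome values were 9.66, 9.65, 9.71 and 9.80 with vehicle and 8.62, 8.52, 8.69 and 8.69 with PP242, and its cytosolic values 8.64, 8.76, 9.04 and 9.04 and then 7.58, 8.03, 7.65 and 8.27. All MYBL2 arrays with PP242 were below all with vehicle. The effects were -1.07 ± 0.14 (adjusted p = 3.30e-05) and -0.99 ± 0.14 (adjusted p = 7.86e-05).

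Of the 9 entry kinases, cyclins and CDC25C, all fell in polysome RNA and 8 in cytosolic RNA, with medians of -1.10 and -1.29. CDK1, the kinase whose activity with cyclin B defines mitosis, had the largest polysome effect of the list. Its polysome values were 10.24, 10.42, 9.98 and 10.14 with vehicle and 8.19, 8.23, 7.39 and 7.95 with PP242. Its cytosolic values were 10.03, 10.17, 10.40 and 10.30 with vehicle and 7.96, 7.39, 8.35 and 8.26 with PP242. The groups were far apart in both pools. The effects were -2.25 ± 0.20 (adjusted p = 3.16e-07) and -2.23 ± 0.20 (adjusted p = 3.44e-07). Both other CDK1 probe sets with a mean above 5 read -2.47 and -2.57 in polysome RNA.

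PLK1, the Polo-like kinase of centrosome maturation and spindle assembly, moved least of this group. PLK1 in polysome RNA read 6.19, 6.36, 6.34 and 6.51 with vehicle and 5.63, 5.74, 5.29 and 5.69 with PP242, without overlap. In the cytosol it read 6.62, 6.83, 6.91 and 6.77 with vehicle and 6.24, 6.78, 6.00 and 6.47 with PP242, where array 2 of PP242 reached into the vehicle range. The polysome effect was -0.76 ± 0.15 (adjusted p = 1.42e-03) and the cytosolic effect -0.41 ± 0.15 (adjusted p = 0.0663). With the replicate block PLK1 fell in the cytosol too (adjusted p = 0.0239). The other members were AURKA, the spindle pole kinase (-1.53 in polysome, -1.29 in cytosolic RNA), and the cyclins CCNA2 (-1.26 and -1.76), CCNB1 (-0.98 and -1.04) and CCNB2 (-0.99 and -0.73). The centriole kinase PLK4 (-1.25 and -1.77), the CDK1-activating phosphatase CDC25C (-1.10 and -0.77) and the centrosome kinase NEK2 (-0.87 and -1.55) fell as well. CCNB2 depended on the probe set: with the mean of its probe sets it was -0.31 (adjusted p = 0.0979) and -0.02 (adjusted p = 0.937). NEK2 lost its polysome call without replicate number 1 (-0.92) or 2 (-0.89, adjusted p = 0.0771).

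All 5 spindle checkpoint genes fell in both pools, with medians of -1.31 and -1.29. BUB1B encodes BubR1, which inhibits the anaphase-promoting complex. Its values were tight: 9.91, 10.15, 9.96 and 10.07 on polysomes with vehicle and 8.69, 8.66, 8.54 and 8.75 with PP242, and 9.88, 9.92, 10.06 and 10.00 in the cytosol with vehicle and 8.87, 8.84, 8.66 and 8.51 with PP242. BUB1B groups were more than 1 log2 unit apart on every pair of arrays in polysome RNA. The effects were -1.36 ± 0.11 (adjusted p = 8.12e-08) and -1.25 ± 0.11 (adjusted p = 2.65e-07). BUB3, the partner that brings BUB1 and BubR1 to kinetochores, moved least. On polysomes BUB3 read 10.57, 10.78, 10.71 and 10.66 with vehicle and 10.18, 10.18, 9.88 and 10.12 with PP242, and in the cytosol 10.45, 10.36, 10.40 and 10.37 and then 10.12, 9.93, 9.39 and 9.96. The smaller shift of BUB3 was still without overlap. The effects were -0.59 ± 0.13 (adjusted p = 4.38e-03) and -0.55 ± 0.13 (adjusted p = 7.34e-03), and without replicate number 2 the cytosolic call was lost (-0.58, adjusted p = 0.0502). BUB1, a kinase of the checkpoint, was at -1.31 and -1.29, TTK, the kinase that starts it, at -1.28 and -1.87, and MAD2L1, its diffusible inhibitor, at -1.34 and -2.17.

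The 4 anaphase genes fell in both pools, by medians of -0.99 on polysomes and -0.64 in the cytosol. ESPL1 is separase, which cuts cohesin. On polysomes ESPL1 read 9.32, 9.67, 9.62 and 9.43 with vehicle and 8.47, 8.49, 8.15 and 8.28 with PP242, and in the cytosol 8.83, 8.83, 9.0 and 9.21 and then 7.83, 8.34, 7.69 and 8.29. No ESPL1 array with PP242 reached its vehicle range. The effects were -1.16 ± 0.15 (adjusted p = 2.79e-05) and -0.93 ± 0.15 (adjusted p = 2.74e-04). PTTG1 is securin, the inhibitor of separase. PTTG1 read 12.57, 12.44, 12.34 and 12.53 on vehicle polysomes and 11.68, 11.65, 11.40 and 11.82 with PP242, and in the cytosol 12.13, 12.11, 11.96 and 12.05 and then 11.38, 11.83, 10.85 and 11.67. Cytosolic PP242 array 3 was the low one. The effects were -0.83 ± 0.16 (adjusted p = 1.05e-03) and -0.63 ± 0.16 (adjusted p = 8.78e-03), and without replicate number 1 the cytosolic call was lost (-0.59, adjusted p = 0.0746). CDC20, the activator that the checkpoint holds, was at -0.94 and -0.55, and UBE2C, the ubiquitin-conjugating enzyme of the complex, at -1.04 and -0.66. CDC20 lost its cytosolic call when any replicate number was left out (-0.68 to -0.37, adjusted p = 0.0522 to 0.205), and UBE2C without number 1 (-0.66, adjusted p = 0.0551) or 4 (-0.71, adjusted p = 0.0652).

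Among 11 centromere and kinetochore genes, 10 fell on polysomes and all 11 in the cytosol, with medians of -1.06 and -1.21. SPC25, a subunit of the NDC80 complex that grips microtubules, fell most on polysomes. Its polysome values were 9.50, 9.65, 9.40 and 9.73 with vehicle and 7.65, 7.76, 7.75 and 7.75 with PP242, and its cytosolic values 8.69, 8.64, 8.37 and 8.51 and then 6.72, 6.66, 5.95 and 6.51. On polysomes the gap between SPC25 groups was many times their spread. In the cytosol the PP242 arrays of SPC25 spread more widely (SD 0.35), without overlap with vehicle. The effects were -1.84 ± 0.15 (adjusted p = 8.12e-08) and -2.09 ± 0.15 (adjusted p = 1.96e-08). CENPN reads the centromeric nucleosome and changed least. CENPN read 8.41, 8.39, 8.26 and 8.46 on vehicle polysomes and 8.18, 7.80, 7.53 and 7.89 with PP242, and in the cytosol 9.19, 9.15, 9.13 and 9.25 and then 8.62, 8.91, 8.04 and 8.84. The groups did not overlap, but array 1 on polysomes and array 2 in the cytosol came close. The effects were -0.53 ± 0.16 (adjusted p = 0.0369) and -0.58 ± 0.16 (adjusted p = 0.0199). Both calls were lost without replicate number 1 (-0.63, adjusted p = 0.068, and -0.58, adjusted p = 0.0743), 2 (-0.51, adjusted p = 0.159, and -0.69, adjusted p = 0.0512) or 4 (-0.52, adjusted p = 0.144, and -0.63, adjusted p = 0.0743).

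The other NDC80 subunits moved the same way: NDC80 at -1.11 and -1.51, NUF2 at -1.01 and -1.74, and SPC24 at -1.55 and -1.21. Of the inner centromere proteins, CENPK was at -1.52 and -2.33, CENPM at -1.13 and -0.91, CENPI at -1.06 and -1.38, and CENPA, the centromeric histone, at -0.79 and -0.87. CENPF, a large outer protein, was at -0.69 and -0.62, and its polysome call was lost without replicate number 2 (-0.63, adjusted p = 0.125) or 3 (-0.65, adjusted p = 0.1). Its cytosolic call was lost without number 2 (-0.73, adjusted p = 0.0745), 3 (-0.56, adjusted p = 0.107) or 4 (-0.68, adjusted p = 0.0695). CENPA lost its polysome call without number 2 (-0.74, adjusted p = 0.0595). CENPE, a kinetochore kinesin, had polysome values of 8.41, 8.83, 8.99 and 8.76 with vehicle and 8.01, 8.36, 8.09 and 7.96 with PP242. CENPE arrays did not overlap there, yet the effect of -0.64 ± 0.27 missed the threshold (adjusted p = 0.134). The fit uses a single spread over all 4 groups, and in the cytosol array 1 of CENPE was low, at 7.74 with vehicle and 6.68 with PP242. CENPE passed in a fit of the 8 polysome arrays only (adjusted p = 0.00788) and with the replicate block (adjusted p = 0.0107). In the cytosol CENPE was at -1.04 ± 0.27 (adjusted p = 0.0110), a call lost without number 2 (-1.06, adjusted p = 0.0808) or 4 (-1.04, adjusted p = 0.0635).

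The chromosomal passenger complex is the Aurora B kinase with its scaffold INCENP and its targeting subunits. Of its 4 members, 3 fell on polysomes (median -1.32) and 4 in the cytosol (median -1.10). AURKB, the kinase, read 9.79, 10.05, 9.95 and 9.90 on vehicle polysomes and 8.44, 8.41, 7.80 and 8.02 with PP242, and in the cytosol 8.61, 8.63, 8.83 and 8.93 and then 7.24, 7.58, 6.80 and 7.67. AURKB groups were well apart in both pools. The effects were -1.75 ± 0.18 (adjusted p = 1.40e-06) and -1.43 ± 0.18 (adjusted p = 1.46e-05). INCENP, the scaffold, was the member with the smallest polysome effect. It read 5.44, 4.94, 5.05 and 4.84 on vehicle polysomes and 4.76, 4.70, 4.76 and 4.73 with PP242, and in the cytosol 5.93, 5.96, 5.85 and 5.87 and then 5.72, 5.24, 5.05 and 4.63. INCENP polysome groups were separate by less than 0.1, and the probe set is dim. The polysome effect was -0.33 ± 0.17 (adjusted p = 0.253) and the cytosolic one -0.74 ± 0.17 (adjusted p = 4.89e-03), a call lost without replicate number 2 (-0.75, adjusted p = 0.0516). CDCA8, or borealin, was at -1.59 and -1.26, and BIRC5, or survivin, at -1.05 and -0.94.

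All 8 kinesin motors fell in both pools, with medians of -1.13 and -1.23. KIF23 is the motor of the centralspindlin complex at the spindle midzone. KIF23 read 8.38, 8.57, 8.40 and 8.47 on vehicle polysomes and 7.11, 7.48, 7.09 and 6.89 with PP242, and in the cytosol 8.25, 8.19, 8.61 and 8.63 and then 6.85, 6.31, 7.04 and 5.86. The cytosolic PP242 arrays of KIF23 spread over more than 1 log2 unit, below every vehicle array. The effects were -1.31 ± 0.20 (adjusted p = 1.57e-04) and -1.91 ± 0.20 (adjusted p = 2.72e-06). KIF14, a cytokinesis motor, read 8.80, 9.40, 9.28 and 9.17 on vehicle polysomes and 8.39, 8.59, 8.71 and 8.09 with PP242, and in the cytosol 8.91, 9.12, 9.60 and 9.62 and then 7.60, 7.83, 8.69 and 8.06. The groups of KIF14 came within 0.3 of each other in both pools. The effects were -0.72 ± 0.22 (adjusted p = 0.0325) and -1.27 ± 0.22 (adjusted p = 4.25e-04), and the polysome call was lost without replicate number 2 (-0.69, adjusted p = 0.154) or 4 (-0.60, adjusted p = 0.192). KIF11, the motor that separates spindle poles, was at -1.18 and -1.90, KIF2C, a microtubule depolymerase, at -1.22 and -0.90, and KIF15, which backs up KIF11, at -1.20 and -1.20. KIF20A was at -1.08 and -1.14, KIF18A, which limits chromosome movement, at -0.91 and -1.29, and the chromokinesin KIF4A at -0.73 and -0.63.

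The 4 spindle assembly genes fell in both pools, with medians of -0.93 and -1.10. TPX2 activates AURKA on the spindle. TPX2 read 10.83, 10.97, 10.90 and 11.02 on vehicle polysomes and 9.59, 9.75, 9.24 and 9.57 with PP242, and in the cytosol 10.33, 10.40, 10.88 and 10.84 and then 9.52, 9.76, 9.52 and 9.83. In the vehicle cytosol arrays 3 and 4 were above 1 and 2, and all were above PP242. The effects were -1.39 ± 0.14 (adjusted p = 1.53e-06) and -0.95 ± 0.14 (adjusted p = 1.01e-04). HMMR, a microtubule-binding protein of the spindle pole, read 10.26, 10.69, 10.82 and 10.91 on vehicle polysomes and 9.72, 10.20, 10.13 and 10.22 with PP242, and in the cytosol 11.00, 11.12, 11.48 and 11.36 and then 10.24, 10.21, 10.75 and 9.92. On polysomes the lowest HMMR vehicle array was just above the highest PP242 array. The effects were -0.60 ± 0.18 (adjusted p = 0.0276) and -0.96 ± 0.18 (adjusted p = 8.61e-04), and the polysome call was lost without replicate number 2 (-0.64, adjusted p = 0.115), 3 (-0.57, adjusted p = 0.0597) or 4 (-0.57, adjusted p = 0.0931). DLGAP5, a kinetochore fibre protein, was at -1.15 and -1.31. ASPM, a spindle pole protein, was at -0.71 and -1.25, with the polysome call lost without number 2 (-0.70, adjusted p = 0.135) or 4 (-0.65, adjusted p = 0.142).

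The 6 genes of condensin, topoisomerase and the chromosome surface fell in both pools, with medians of -0.98 and -1.30. NCAPH, the kleisin subunit of condensin I, read 8.52, 8.76, 8.52 and 8.66 on vehicle polysomes and 6.84, 6.95, 6.78 and 6.96 with PP242, and in the cytosol 8.01, 8.0, 8.06 and 8.18 and then 6.51, 6.57, 6.22 and 6.48. The NCAPH arrays were among the tightest of the list. The effects were -1.73 ± 0.11 (adjusted p = 9.91e-09) and -1.62 ± 0.11 (adjusted p = 1.37e-08). TOP2A, the topoisomerase that untangles chromosomes, read 12.44, 12.75, 12.69 and 12.53 on vehicle polysomes and 11.73, 12.21, 11.88 and 11.42 with PP242, and in the cytosol 11.50, 11.31, 11.59 and 11.54 and then 10.31, 9.58, 10.59 and 9.65. Cytosolic PP242 arrays 2 and 4 of TOP2A were the low ones. The effects were -0.79 ± 0.19 (adjusted p = 8.54e-03) and -1.45 ± 0.19 (adjusted p = 3.42e-05), and the polysome call was lost without replicate number 4 (-0.69, adjusted p = 0.0585). Another bright TOP2A probe set gave -1.48 on polysomes and -1.63 in the cytosol. SMC2 (-1.38 and -1.60), SMC4 (-0.90 and -1.07) and NCAPG (-0.94 and -1.15) are the other condensin subunits listed, and MKI67, which coats mitotic chromosomes, was at -1.02 and -0.99.

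The 5 cytokinesis genes fell by a median of -1.38 on polysomes and -2.15 in the cytosol. SHCBP1, a midbody protein that works with centralspindlin, had the largest cytosolic effect of the list over all arrays. SHCBP1 read 9.69, 9.94, 9.87 and 10.15 on vehicle polysomes and 7.94, 8.47, 8.43 and 8.31 with PP242, and in the cytosol 9.49, 9.27, 9.66 and 9.50 and then 7.46, 6.40, 7.83 and 6.01. Cytosolic PP242 arrays 2 and 4 of SHCBP1 were more than 1 log2 unit below arrays 1 and 3. The effects were -1.62 ± 0.28 (adjusted p = 4.42e-04) and -2.56 ± 0.28 (adjusted p = 3.54e-06). Without cytosolic PP242 arrays 2 and 4 the cytosolic effect of SHCBP1 was -1.84, that of SPC25 (-2.22) was the largest, and the cytosolic median of the 5 genes was -1.54 (ECT2 -1.54, ANLN -1.55). RACGAP1, the centralspindlin partner of KIF23, read 9.73, 10.04, 10.11 and 10.32 on vehicle polysomes and 8.92, 8.89, 9.07 and 9.13 with PP242, and in the cytosol 10.15, 10.07, 10.23 and 10.21 and then 9.17, 8.88, 9.08 and 8.44. RACGAP1 groups did not overlap. The effects were -1.05 ± 0.15 (adjusted p = 6.98e-05) and -1.27 ± 0.15 (adjusted p = 7.61e-06). ECT2, the exchange factor that activates RhoA, was at -1.40 and -2.27, ANLN, the anillin scaffold of the contractile ring, at -1.38 and -2.15, and PRC1, the midzone crosslinker, at -1.25 and -1.08.

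**Figure D3:**
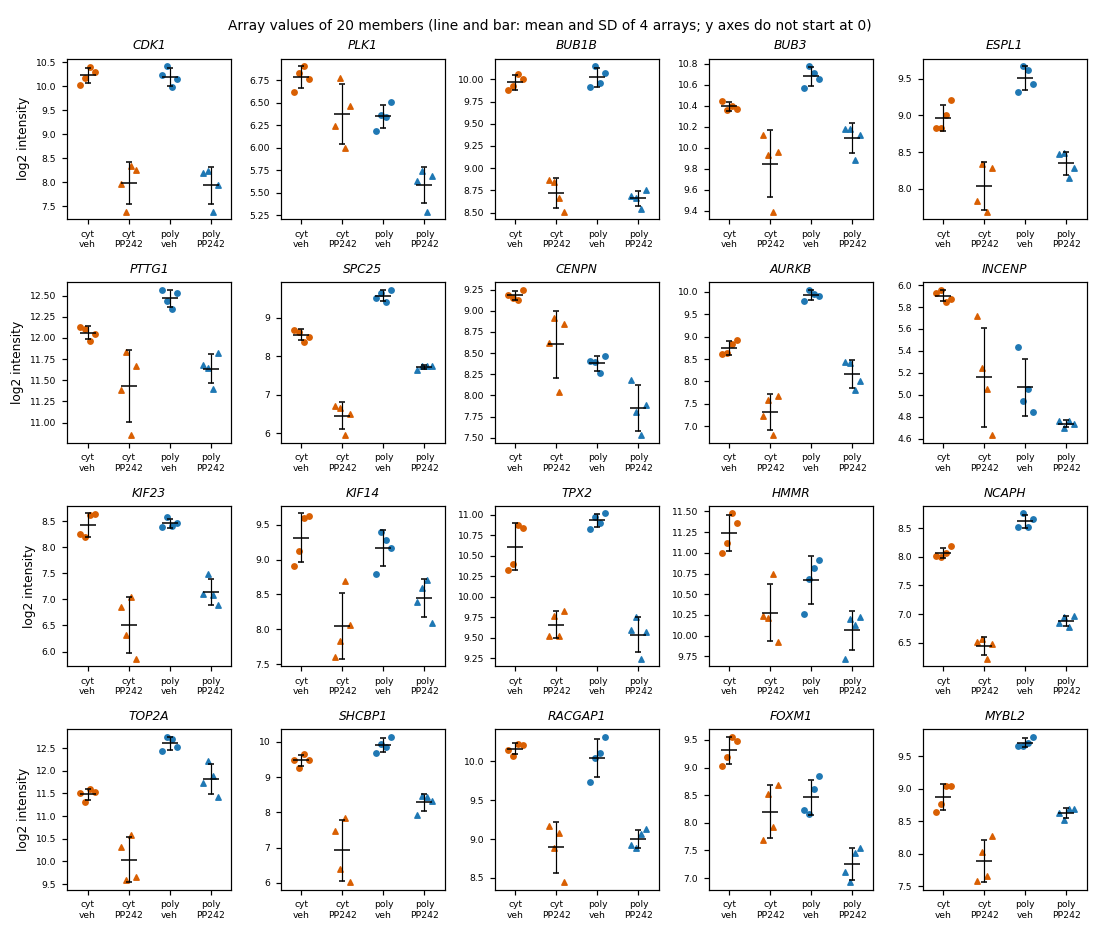
Log2 intensity of 20 members on each of the 16 arrays (4 per group; circles vehicle, triangles PP242; orange cytosolic, blue polysome), with the mean and SD of each group. PP242 arrays lie below vehicle arrays in every panel and pool, except that PLK1 in cytosolic RNA overlaps.

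The change in polysome association is the polysome effect minus the cytosolic effect. No member was called by limma in either direction, and neither was any of the 19775 genes (0.0% lower and 0.0% higher). At an unadjusted p under 0.05, 10 members were higher (CCNA2, NEK2, MAD2L1, CENPK, NDC80, NUF2, KIF11, TOP2A, ECT2 and SHCBP1) and 1 was lower (TPX2), against 4.06% and 4.79% of all genes. The median over the members was 0.06, with 32 above 0 and 26 below, beside -0.04 for all genes. This split moved with the processing: quantile normalization gave a median of 0.22 with 44 above and 14 below, and leaving out cytosolic PP242 arrays 2 and 4 gave 0.16 with 42 above and 16 below. Standard errors ran from 0.15 to 0.41 with a median of 0.24. The 95% interval lay within 1 log2 unit of 0 for 43 members and within 0.5 for 8, so smaller shifts were not detectable for most. Examples are CDK1 (-0.02, interval -0.61 to 0.57), BUB1B (-0.12, -0.44 to 0.20), NCAPH (-0.12, -0.44 to 0.21) and CCNB1 (0.06, -0.26 to 0.38).

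The members with the largest values had falls that were deeper in the cytosol than on polysomes. An association effect above 0.5 was found for 14 members and one below -0.5 for none. Effects of such size were not counted over all genes, so whether this split is particular to the members was not tested. The highest were SHCBP1 (0.93, interval 0.11 to 1.75), ECT2 (0.87, 0.01 to 1.74), MAD2L1 (0.83, 0.09 to 1.58) and CENPK (0.81, 0.08 to 1.55), all with an adjusted p of 0.558 in limma. These 14 members had a median SD of 0.58 over the cytosolic PP242 arrays, and the other members one of 0.33. With cytosolic PP242 arrays 2 and 4 left out, 1 of the 14 stayed above 0.5 (PLK4, 0.58), and CENPE rose above it (0.66), so 2 members were above 0.5 in that fit. There SHCBP1 was at 0.21, ECT2 at 0.15, MAD2L1 at 0.25 and CENPK at 0.41. Arrays 2 and 4 held the lower cytosolic PP242 values of members such as SHCBP1 and ECT2. Leaving them out therefore had to lower the association effect of such members. No other pair of that group was left out, so this fit is no test of the association values. Of the 14 members, 7 have another probe set with a mean of at least 5, 9 probe sets in all, and none of the 9 was above 0.5 while 4 were below 0. Among their dimmer probe sets PLK4 read 0.56 (mean 4.33) and 0.02 (mean 2.44), KIF23 -0.19, TOP2A -0.295 and ECT2 -0.04. MAD2L1 read 0.83 with its main probe set and -0.29 and 0.38 with others, TOP2A 0.66 and 0.15, and ANLN 0.77 and -0.03.

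The 57 probe sets of members that were not used to represent them are a further reading of the same arrays. Of these, 18 had a mean under 5 and 39 a mean of 5 or more. Among the 39, 32 were lower on polysomes and 34 lower in the cytosol with PP242, where 9.35% and 11.5% of all 21643 single-gene probe sets with such a mean were called (limma over probe sets). None of the 57 was called higher in either pool. For CDK1 a dim probe set with a mean of 3.17 gave -0.71 on polysomes where the brighter ones gave -2.25 to -2.57. For CCNB2 the bright probe set gave -0.99 and 2 dimmer ones, with means of 5.14 and 3.06, gave -0.05 and 0.12. With the mean of probe sets the polysome effect of BUB1 was -0.48, of SPC24 -0.78 and of ECT2 -0.81. In the cytosol it was -0.33 for BUB1, -0.59 for SPC24, -0.71 for CENPI, -1.09 for PLK4 and -1.13 for ECT2, all over 1.5 times smaller in fold than with the brightest probe set. For BUB3 the probe set brightest in cytosolic vehicle gave -1.20 in the cytosol.

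**Figure D4:**
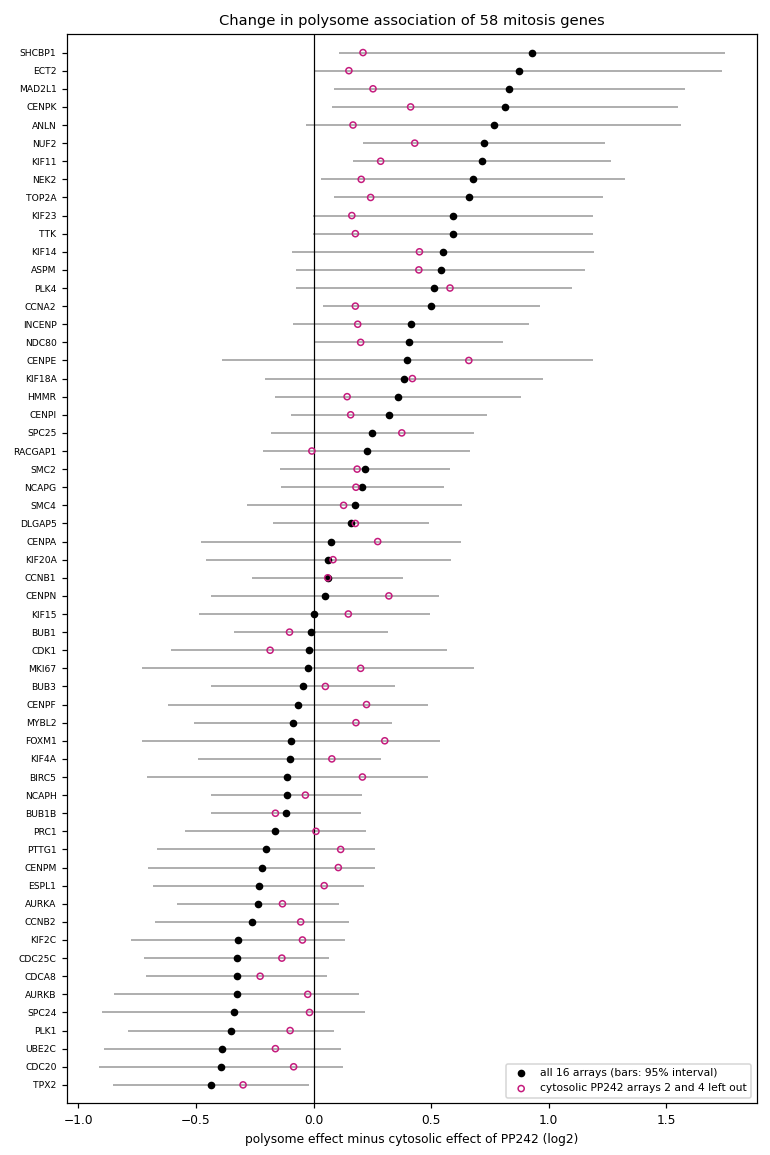
Polysome effect minus cytosolic effect of PP242 (log2) for the 58 members, with 95% intervals from all 16 arrays (filled points) and the value with cytosolic PP242 arrays 2 and 4 left out (open points). At the top, SHCBP1 moves from 0.93 to 0.21 and ECT2 from 0.87 to 0.15. Arrays 2 and 4 held the lower cytosolic PP242 values of both genes, so these moves follow from which arrays were left out.

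The spread of the members was not even over the groups. Their median SD was 0.38 in cytosolic PP242. It was 0.18 in polysome PP242, and the vehicle arrays gave 0.15 (cytosolic) and 0.16 (polysome). Over all genes these medians were 0.24, 0.15, 0.12 and 0.16. The largest SD lay in cytosolic PP242 for 54 of 58 members. Array 3 of that group was the highest of 4 for 21 members and the lowest for 20. CENPK, ANLN, ECT2 and SHCBP1 were high on it, and PTTG1, CENPN, UBE2C and CENPA were low. For example, ECT2 read 8.02, 7.22, 8.68 and 6.59 there and ANLN 9.76, 9.03, 10.69 and 9.03. The mean over the 58 members stayed between 8.07 and 8.18 on these 4 arrays, as members deviated in both directions. On the polysome PP242 arrays the member mean was 8.38 to 8.53. With vehicle it was 9.25 to 9.50 in the cytosol and 9.47 to 9.66 on polysomes. In cytosolic vehicle, arrays 1 and 2 both lay below arrays 3 and 4 for 44 members and above for 7. Neither this order of arrays nor the group with the largest SD was counted over all genes. With replicate numbers 1 and 2 alone 49 members fell on polysomes and 51 in the cytosol, and with 3 and 4 alone 41 and 48. Of all genes, 5.27% and 6.41% fell with numbers 1 and 2 alone, and 2.45% and 3.05% with 3 and 4 alone.

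**Figure D5:**
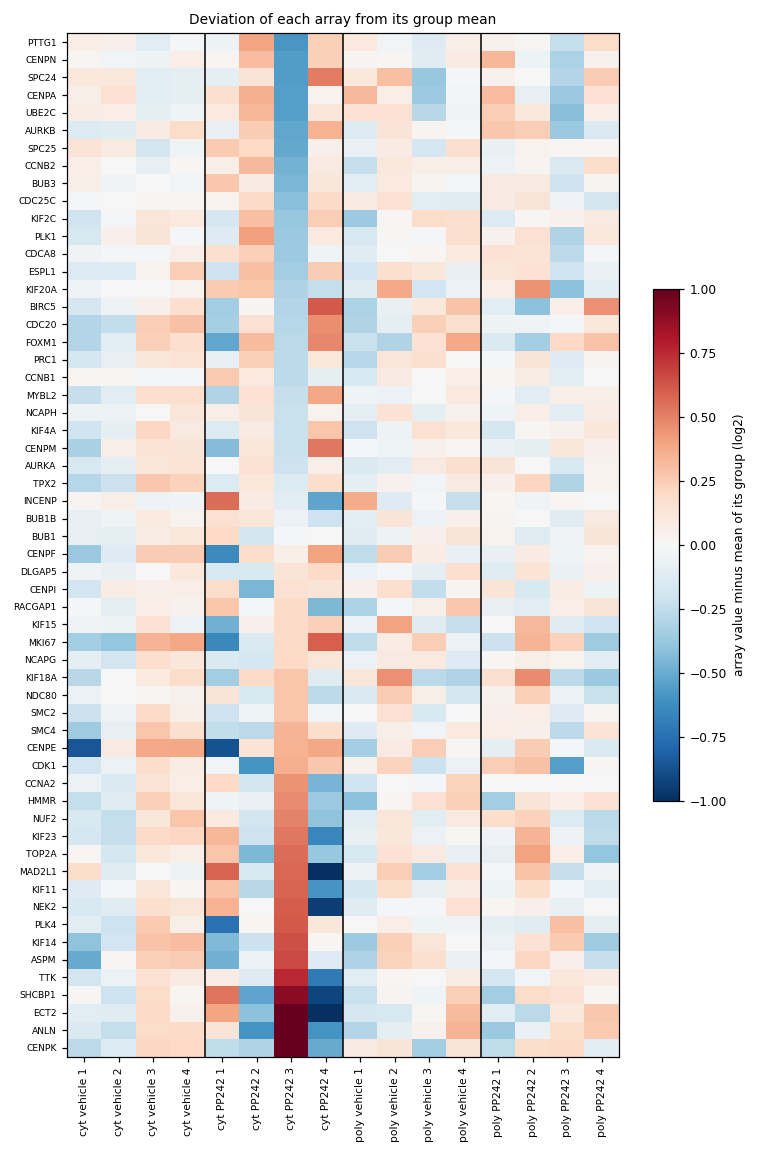
Deviation of each array from the mean of its group (log2, red above, blue below) for the 58 members, sorted by cytosolic PP242 array 3. Colours are strongest in the cytosolic PP242 columns, where 43 members have an SD above 0.3, against 7 for polysome PP242, 6 for cytosolic vehicle and 2 for polysome vehicle. SDs above 0.3 were not counted over all genes.

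In vehicle cells the polysome level was called above the cytosolic level for 23 members and below it for 9, where 16.8% and 35.9% of all genes were so called (limma). The highest were CDC20 (1.25), AURKB (1.17), TOP2A (1.12), KIF2C (1.05) and SPC25 (1.02), and the lowest KIF11 (-0.90), FOXM1 (-0.85) and INCENP (-0.83). Other probe sets did not always give the same value. TOP2A was at -0.12 with its other bright probe set and at 0.41 with the mean of its probe sets, and AURKB was at -0.73 with its dimmer probe set and at 0.22 with the mean, where its call was lost (adjusted p = 0.156). The values also depend on how the pools were scaled. With quantile normalization over all 16 arrays 16 members were higher and 12 lower, and all genes went to 23.9% and 20.4%. With cyclic loess the member counts were 18 and 8, and all genes went to 24.1% and 21.7%. The median of all genes moved from -0.16 to 0.03 and 0.02.

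Related genes outside the list were counted in 7 further gene lists. Over all genes 6.55% fell and 6.82% rose on polysomes, and 7.91% fell and 8.54% rose in the cytosol. Of 27 other kinetochore and centromere genes, 23 fell on polysomes and 21 in the cytosol, with ZWINT (-1.71), CENPQ (-1.65) and OIP5 (-1.54) falling most on polysomes. Of 15 other mitotic motors and spindle genes, 13 and 11 fell, led by KIFC1 (-1.63), NUSAP1 (-1.21) and TACC3 (-1.19). Of 4 other condensin subunits 3 and 2 fell, with NCAPG2 at -1.57. None of the genes in these 3 lists rose in either pool.

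Of 14 cohesin genes, which hold sister chromatids together, 4 fell and 1 rose on polysomes and 10 fell in the cytosol. ESCO2 (-1.53), CDCA5 (-1.46) and SMC1A (-1.15) fell most on polysomes. Of 16 anaphase-promoting complex genes, 4 fell on polysomes, while 5 fell and 1 rose in the cytosol. FBXO5, an inhibitor of the complex, was at -1.97, UBE2S at -0.82 and CDC23 at -0.79. In a list of 14 genes named for CDK1 control, 7 fell and 1 rose in each pool, with MASTL (-1.90), CDC25A (-1.46) and HASPIN (-1.36) lowest on polysomes. HASPIN is a histone kinase and does not itself control CDK1. Of 11 MuvB and DREAM subunits 4 fell on polysomes and 6 in the cytosol, with RBL1 (-1.30), TFDP1 (-1.14) and LIN9 (-0.96). The medians of these 4 lists on polysomes were -0.33, -0.24, -0.66 and -0.27, beside -1.10 for the 58 members. The genes that rose, named after their values were seen, were MAU2 on polysomes (0.42), CDC16 in the cytosol (0.57) and CDKN1A, the p21 inhibitor of cyclin-dependent kinases, in both (0.59 and 0.77). No difference between lists was tested.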

How the data were processed

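The 16 arrays are Affymetrix 3′ arrays of biotin-labelled RNA (3′ IVT Express kit, per the labels). The deposited values are log2 intensities, summarized by the authors with RMA per the submitters' processing notes; its version and other settings are not stated there. They lie between 1.65 and 14.61 for 54613 probe sets. Of these, 41091 list 1 gene and were used, 1801 list several and 11721 are not in the array's gene table. Array medians differ between pools, so an effect is relative to the other mRNAs of its pool, and a loss shared by all mRNAs is not visible.

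Computed here, with limma 3.58.1 in R 4.3.3: 1 mean per group over 16 arrays, eBayes with an intensity trend, 4 two-sided contrasts, Benjamini-Hochberg adjustment over 19775 genes, and a call at an adjusted p under 0.05. The precision is limited by 4 arrays per group. The fit was tested on simulated data for 50 genes at each size among 19775. It recovered 36% of polysome, 34% of cytosolic and 12% of association effects of -0.5, and 96%, 96% and 70% of effects of -1. The simulated noise was independent between arrays and had 1 spread per gene in all groups. The wider spread of the members in cytosolic PP242 was not simulated, so these shares do not give the recovery of their cytosolic and association effects.

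Arrays of the same replicate number deviated together in 16 of 16 pairs of compared groups (r = 0.164 to 0.51). Whether the numbers mark shared cultures or shared processing cannot be told apart. The main fit does not use this pairing, and the replicate block, which does, is an alternative. The other alternatives were left-out replicate numbers and arrays, array weights, normalization, probe set choice, filter and trend. The members, gene lists and alternatives were chosen with earlier results of these data known. Values in every sample are printed for the largest and smallest polysome effect of each functional group; from each further list, at most 3 called genes with the largest polysome change are named.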

Additional observations from a re-analysis of the deposited data

Results flagged for a closer look

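Over the 58 members and 4 groups, 9 of 232 sets of 4 arrays had an array far from the other 3, where chance alone gives about 1 in 20. In cytosolic vehicle these were CENPI on array 1, at 6.69 against 6.93 to 6.96 on the others, and KIF15 on array 3, at 7.83 against 7.62 to 7.65. In cytosolic PP242 they were CENPI on array 2, at 5.04 against 5.63 to 5.68, and CENPK on array 3, at 6.61 against 5.04 to 5.29. In polysome vehicle they were CCNB2 on array 1, at 11.06 against 11.35 to 11.39, and CENPK on array 3, at 7.53 against 7.96 to 8.0. In polysome PP242 they were PLK4 on array 3, at 5.32 against 4.90 to 4.93, SPC25 on array 1, at 7.65 against 7.75 to 7.76, and CCNA2 on array 4, at 8.31 against 8.32 on the others, a gap of 1 rounding step of the deposited values.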

How the results depend on the processing

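No member changed sign in either pool under the alternatives run. With the replicate block, 57 members fell on polysomes and 58 in the cytosol, association stayed at 0 calls, and 25 members were higher and 11 lower on vehicle polysomes than in the cytosol. The share of all genes moved too: with the block 9.72% fell on polysomes and 11% in the cytosol. In its vehicle comparison 19.5% of all genes were higher and 39.7% lower. Leaving out each replicate number gave 49 to 55 members lower on polysomes, 51 to 55 in the cytosol, and 17 to 26 higher and 8 to 10 lower in the vehicle comparison. Of all genes, 3.91% to 5.23% then fell on polysomes and 4.48% to 7.76% in the cytosol. In the vehicle comparison 13.5% to 15.4% of all genes were higher and 30% to 32.4% lower. With replicate numbers 3 and 4 alone 12 members were higher in the vehicle comparison, and with the mean of probe sets 14 were lower. Of all genes, 10.1% were higher in the former setting and 41.7% lower in the latter. The cause was not tested. Other settings gave 51 to 57 members lower on polysomes and 52 to 58 in the cytosol, apart from the fits on pairs of replicate numbers (49 and 41, 51 and 48). In these other settings 5.34% to 10.8% of all genes fell on polysomes and 5.58% to 12.4% in the cytosol. No member was called for association in the settings where it was fitted. Fits of only the 2 groups compared do not give it. Polysome calls lost with quantile normalization were NEK2, CENPN, KIF14, ASPM and HMMR (adjusted p = 0.0564, 0.0634, 0.094, 0.0989 and 0.134), those lost with cyclic loess KIF14, ASPM, HMMR and TOP2A (adjusted p = 0.0605, 0.0692, 0.1 and 0.0517), and those lost with the mean of probe sets CCNB2 and CENPN (adjusted p = 0.0979 and 0.0564). In the cytosol CDC20 was lost with quantile normalization (adjusted p = 0.0532) and CCNB2 with the mean of probe sets (adjusted p = 0.937). CDC20, PTTG1, CENPE, CENPF and CENPN were lost there in the fit of only the 8 cytosolic arrays (adjusted p = 0.12, 0.0522, 0.064, 0.105 and 0.0654), and INCENP without cytosolic PP242 arrays 2 and 4 (adjusted p = 0.0658). At 4 arrays per group, association shifts of 0.5 are mostly below what the fit can call. Leaving out single arrays was added after the values were seen, and it moved 1 count of large falls by over 1.5 times, that of 4-fold falls in the cytosol, from 7 to 4 without cytosolic PP242 array 4 (2 without arrays 2 and 4).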
